A study of Mus musculus with 21 samples.

Results

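Cdx1, Cdx2, Cdx4, Hoxb1, Hoxb2 and Hotairm1, the 3 mouse Cdx genes and 3 transcripts from the early-acting ends of Hox clusters, were followed through embryoid body differentiation with and without Cxxc5. They were taken by symbol as 6 of the 24458 genes in a deposited expression table, and all 6 were found. Cxxc5, the gene also called Rinf, codes for a CXXC zinc finger protein, and such fingers bind CpG in DNA. Embryoid bodies are aggregates in which pluripotent cells differentiate; here they were formed in hanging drops from embryonic stem cell lines of mixed 129/C57BL/6 background. The groups were Rinf knockout and wild type embryoid bodies at days 0, 3 and 6, each with 2 libraries of total RNA, 12 in all. Per the design text, the 2 libraries of a genotype came from independent stem cell lines. The spread between them is thus that of lines and culture together. The main p-values use this spread pooled over all groups and days, so they do not measure the spread at day 6 alone. Cdx2, Hoxb1 and Hoxb2 were low at days 0 and 3. No agent was added to either genotype beyond the shared culture and differentiation protocol, as far as the labels say.

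Cdx genes encode homeodomain transcription factors that act downstream of Wnt, fibroblast growth factor and retinoic acid signals and help to set posterior identity, in part by activating Hox genes. Hox genes lie in 4 clusters, and those at the 3′ end of a cluster, such as Hoxb1 and Hoxb2, are switched on first and mark the anterior limits of Hox expression in the trunk and hindbrain. Cdx2 is also known from the trophectoderm and the intestinal epithelium.

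Expression is given as FPKM, the fragments of a gene scaled to its transcript length and to the fragments mapped in the library. Depth estimated from the steps between low values lay between 14.9 and 32.3 M reads per library. Cxxc5 itself averaged 7.76, 6.07 and 10.6 FPKM in knockout at days 0, 3 and 6, against 28.2, 33.5 and 46.0 FPKM in wild type, so every library followed its label. The labels do not say which part of the gene was removed. The Y chromosome gene Eif2s3y also differed by genotype. It averaged 3.22, 2.34 and 1.94 FPKM in knockout at days 0, 3 and 6, against 12.8, 11.9 and 16.2 FPKM in wild type. The reason for that difference was not tested. The wild type libraries of day 6 differed from each other in these genes. Of 39 protein-coding Hox genes, 10 and 13 reached an FPKM of 1 in knockout replicates 1 and 2 at day 6, against 1 and 8 in wild type replicates 1 and 2, and 0 did so in any library at days 0 and 3. The day 6 tests of Cdx2, Hoxb1, Hoxb2 and Hotairm1 are therefore given with and without each wild type library. Those of the other genes and of the gene lists use all libraries only, so their dependence on 1 wild type library was not tested. The smallest two-sided p of an exact permutation test of 2 libraries against 2 is 0.333. The tests therefore come from limma, a linear model fitted across all 12472 genes whose mean FPKM was 1 or more, on log2(FPKM + 1), with adjusted p under 0.05 as the threshold. Cdx2, Hoxb1, Hoxb2 and Hotairm1 passed that minimum; Cdx1 and Cdx4 did not. RNA of whole embryoid bodies cannot tell apart more cells that express a gene and more RNA per cell.

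At day 6, Cdx2 and Hotairm1 were higher in knockout, the differences of Hoxb1 and Hoxb2 did not pass the test, and Cdx4 was near the limit of detection throughout. Cdx1 had its main difference at day 0, where it was lower in knockout. Of the 4 tested genes, 2 were called higher at day 6, against 17.9% of all tested genes called higher and 16.2% called lower. At day 0 the test called 0 of 4, at adjusted and at unadjusted p, against 0.369% of all genes called in either direction. At day 3 it also called 0 of 4 at either p, against 1.19% of all genes.

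**Figure D1:**
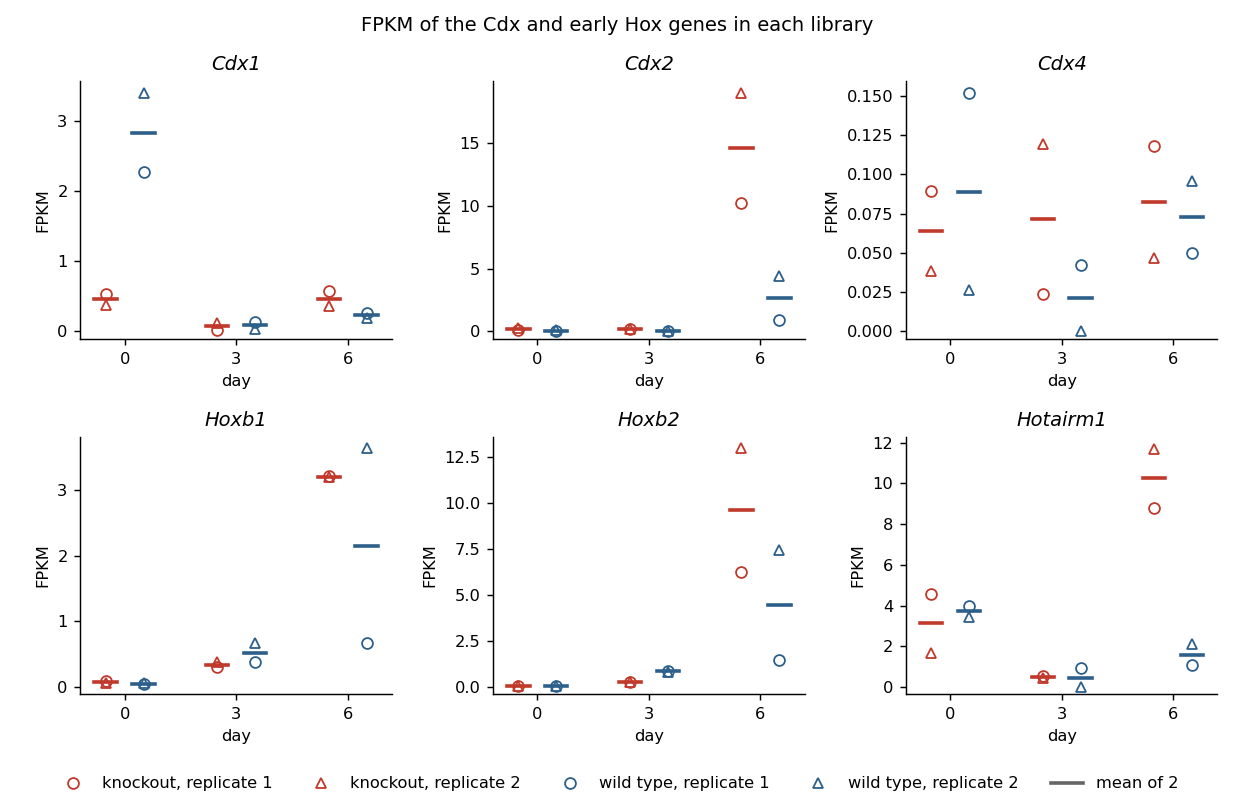
FPKM (vertical axis, a different scale for each gene) of Cdx1, Cdx2, Cdx4, Hoxb1, Hoxb2 and Hotairm1 at days 0, 3 and 6, with knockout in red left of wild type in blue. Circles are replicate 1, triangles replicate 2 and bars the mean of 2 libraries. Cdx2 reached 10.2 and 19.0 FPKM in knockout at day 6, above 0.944 and 4.44 FPKM in wild type, and Cdx1 stood apart by genotype at day 0.

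Cdx2 (chromosome 5, 147300900 to 147307249, build GRCm38.p6) was nearly silent until day 3. At day 0 it had 0.0856 and 0.301 FPKM in knockout and 0.0218 and 0.0748 FPKM in wild type, from 4 and 11 reads against 1 and 4. At day 3 it had 0.186 and 0.200 FPKM in knockout and 0.0606 and 0.0617 FPKM in wild type. Knockout libraries were thus above wild type on both days, at levels that rest on 14 reads or fewer. At day 6 it reached 10.2 and 19.0 FPKM in knockout, against 0.944 and 4.44 FPKM in wild type, from 600 and 1137 reads against 53 and 259. Both knockout libraries lay above both wild type ones, and the wild type pair differed by 4.70-fold. The means were 14.6 ± 6.21 FPKM in knockout and 2.69 ± 2.47 FPKM in wild type (SD, n = 2 each).

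The day 6 log2 fold change of Cdx2 was 2.20 (SE 0.43, adjusted p = 0.00653 by limma). Its mean FPKM reached the minimum of 1 through its day 6 level, chiefly that of knockout, so the minimum favours a difference; with no filter the adjusted p was 0.0119. Fits that leave out a day 6 library leave 1 library in that group, which is then assumed to vary like the libraries of the other groups; this holds for all such values here. The log2 fold change was 1.46 without wild type replicate 1 (adjusted p = 0.0163) and 2.94 without wild type replicate 2 (adjusted p = 5.68e-04). The call was lost without knockout replicate 2 (log2 fold change 1.78, adjusted p = 0.0520) and when the 4 day 6 libraries were fitted alone (adjusted p = 0.146). From day 0 to day 6 Cdx2 rose in both genotypes, by 3.65 in knockout (adjusted p = 7.37e-05) and by 1.63 in wild type (adjusted p = 0.00862) on the log2 scale. The difference between these rises was 2.02 (SE 0.61) and did not pass the threshold (adjusted p = 0.0625).

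Cdx1 (chromosome 18, 61018862 to 61036199), a regulator of vertebral identity that responds to Wnt and retinoic acid, differed in the other direction at day 0. At day 0 it had 0.537 and 0.378 FPKM in knockout and 2.27 and 3.40 FPKM in wild type, from 20 and 11 reads against 83 and 145. The knockout mean was 16.1% of the wild type mean, and the groups did not overlap. At day 3 it had 0.0212 and 0.125 FPKM in knockout and 0.133 and 0.0387 FPKM in wild type, so the groups overlapped at 7 reads or fewer per library. At day 6 it had 0.575 and 0.356 FPKM in knockout, against 0.268 and 0.194 FPKM in wild type, and knockout was the higher group with 27 and 17 reads against 12 and 9. The genotype that was low at day 0 was thus the higher one at day 6.

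Cdx1 had a mean of 0.691 FPKM over the 12 libraries, under the minimum for testing, so its test uses a lower minimum of 0.1 FPKM chosen after the data had been seen, with 16256 genes tested. A gene that passes such a minimum through the group where it is high has a difference partly built in. With that limit, Cdx1 at day 0 was lower in knockout by a log2 fold change of -1.38 (SE 0.14, adjusted p = 0.0162 by limma), where 0.215% of all genes were called lower. The call was lost without wild type replicate 2 (adjusted p = 0.05005), knockout replicate 1 (0.0681) or knockout replicate 2 (0.0682) of day 0, and in the 4 day 0 libraries alone (adjusted p = 0.202). From day 0 to day 3 Cdx1 fell by 1.81 in wild type (adjusted p = 2.40e-05), where 26.6% of all genes were called lower, and by 0.44 in knockout (adjusted p = 0.0340), where 24.2% were. The fall in knockout lost its call without any 1 of the 4 knockout libraries of days 0 and 3, with an adjusted p of 0.0629 to 0.166. At day 6 the log2 fold change between genotypes was 0.25 (adjusted p = 0.228). The genotype difference at day 6 minus that at day 0 was 1.63 (SE 0.20, adjusted p = 0.00447), where 3.999% of all genes were called higher, and it passed without any 1 of the 12 libraries.

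Cdx4 (chromosome X, 103321398 to 103330224), an early posterior gene that in the mouse also supports blood formation from embryonic stem cells, was barely detected. It had 0.0895 and 0.0382 FPKM in knockout and 0.152 and 0.0261 FPKM in wild type at day 0. At day 6 it had 0.118 and 0.0465 FPKM in knockout and 0.0497 and 0.0956 FPKM in wild type, with overlapping groups. All 12 libraries together held 32 reads of Cdx4, and wild type replicate 2 at day 3 held 0, which allows up to 0.129 FPKM at 3 reads. A difference between genotypes was not detectable at this depth.

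**Figure D2:**
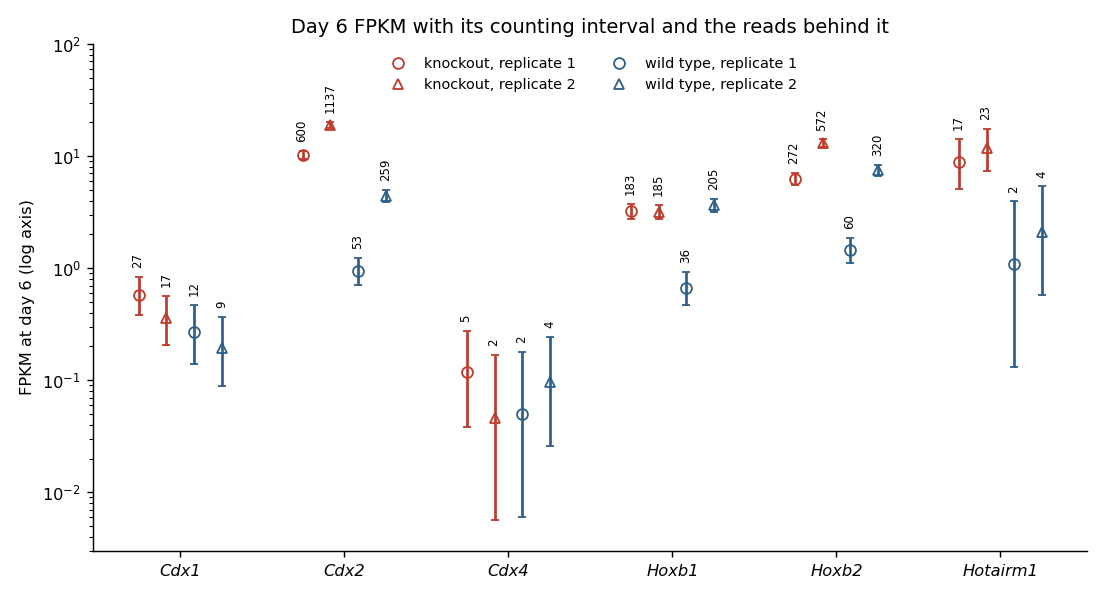
FPKM at day 6 on a log axis for the 6 genes in knockout replicates 1 and 2 (red) and wild type replicates 1 and 2 (blue). Bars are 95% Poisson intervals of the reads, which cover counting error only, and the number above each point is its reads. The wild type libraries of Cdx2, Hoxb1 and Hoxb2 lie further apart than their intervals, while Hotairm1 rests on 2 to 23 reads per library.

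Hoxb1 (chromosome 11, 96365746 to 96368254), the 3′ end gene of the Hoxb cluster, is a direct target of retinoic acid receptors and patterns the hindbrain. It had 0.0887 and 0.0568 FPKM in knockout and 0.0451 and 0.0581 FPKM in wild type at day 0, on 4 reads or fewer. At day 3 it had 0.297 and 0.384 FPKM in knockout and 0.377 and 0.671 FPKM in wild type. At these days the groups overlapped. At day 6 it had 3.22 and 3.20 FPKM in knockout, against 0.665 and 3.64 FPKM in wild type. The knockout pair agreed within counting error, and wild type replicate 2 stood above both knockout libraries while replicate 1 stood far below them.

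The log2 fold change of Hoxb1 at day 6 was 0.60 (SE 0.38, adjusted p = 0.248 by limma). Its sign turned without wild type replicate 1, to -0.14 (adjusted p = 0.514). Without wild type replicate 2 it was 1.34 and passed the threshold (adjusted p = 7.69e-04). Both fits rest on 1 wild type library at day 6, with the spread taken from the other groups. By day 6, relative to day 0, Hoxb1 rose by 1.97 in knockout (adjusted p = 0.00143) and by 1.40 in wild type (adjusted p = 0.0103), and the difference between these rises was 0.57 (SE 0.54, adjusted p = 0.494).

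Hoxb2 (chromosome 11, 96351632 to 96354020) lies 11725 bases from Hoxb1 and acts in the hindbrain and in the neural crest of the branchial arches. It had 0.0291 and 0.0373 FPKM in knockout and 0.0593 and 0.0763 FPKM in wild type at day 0, from 1 to 3 reads. At day 3 it had 0.276 and 0.291 FPKM in knockout and 0.887 and 0.798 FPKM in wild type, from 12 and 15 reads against 43 and 19. Knockout libraries were the lower ones at day 3, with a log2 fold change of -0.52 (SE 0.50) that did not pass the threshold (adjusted p = 0.667). At day 6 it had 6.28 and 12.98 FPKM in knockout and 1.46 and 7.46 FPKM in wild type. Wild type replicate 2 lay between the 2 knockout libraries, so the groups overlapped.

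The log2 fold change of Hoxb2 at day 6 was 1.15 (SE 0.50, adjusted p = 0.105 by limma). It was 0.25 without wild type replicate 1 (adjusted p = 0.599) and 2.04 without wild type replicate 2 (adjusted p = 0.00289), again with 1 wild type library and the spread of the other groups. Without wild type replicate 1, 10.05% of all genes were called higher in knockout, and without wild type replicate 2, 19.6% were. Relative to day 0, Hoxb2 rose by 3.29 in knockout (adjusted p = 3.31e-04) and by 2.09 in wild type (adjusted p = 0.00519). The difference between these rises was 1.19 (SE 0.70, adjusted p = 0.273).

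**Figure D3:**
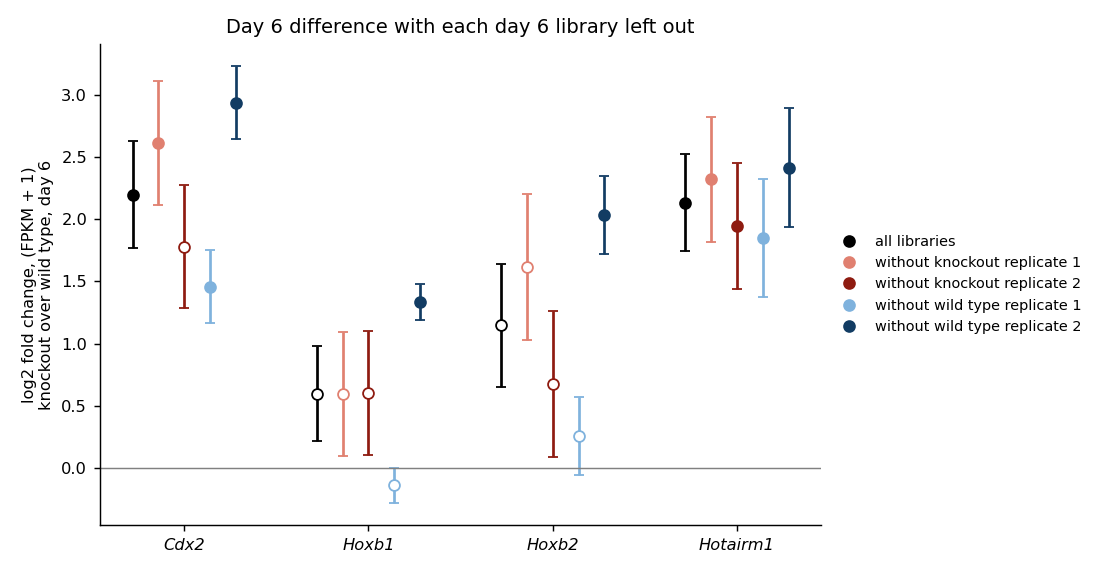
Log2 fold change of (FPKM + 1) in knockout over wild type at day 6 for the 4 tested genes, with all libraries (black) and without each day 6 library in turn (colours). Bars are ± 1 SE from limma, filled points passed an adjusted p of 0.05 and open points did not. Hoxb1 and Hoxb2 moved from -0.14 and 0.25 without wild type replicate 1 to 1.34 and 2.04 without wild type replicate 2, while Cdx2 and Hotairm1 were positive in each case.

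Hotairm1 (chromosome 6, 52158524 to 52162020) is a noncoding RNA of the Hoxa cluster, and its human counterpart is known from myeloid differentiation. It had 4.58 and 1.67 FPKM in knockout and 3.99 and 3.43 FPKM in wild type at day 0. At day 3 it had 0.516 and 0.436 FPKM in knockout and 0.926 and 0 FPKM in wild type. At day 6 it had 8.81 and 11.7 FPKM in knockout, against 1.09 and 2.09 FPKM in wild type. The groups overlapped at days 0 and 3 and were separate at day 6, where the means were 10.3 ± 2.05 FPKM in knockout and 1.59 ± 0.711 FPKM in wild type (SD, n = 2 each).

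These values rest on few reads, 17 and 23 in knockout against 2 and 4 in wild type at day 6, and 71 over all 12 libraries. A single read of Hotairm1 was worth 0.436 to 0.942 FPKM, as for a transcript of 71 effective bases, against 0.0143 to 0.0308 FPKM for Cdx2. Its FPKM is therefore not on a scale with that of the other 5 genes. The RefSeq gene has 2 exons of 253 bases in all. Whether the counting used strand has no statement in the sources used here, so reads from the opposite strand of this locus cannot be told apart from its own.

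The log2 fold change of Hotairm1 at day 6 was 2.14 (SE 0.39, adjusted p = 0.00508 by limma). It passed without any 1 of the day 6 libraries, between 1.85 and 2.42, and missed the threshold with a pseudocount of 0.1 (adjusted p = 0.0508), with array weights (0.0673) and in the 4 day 6 libraries alone (0.0840). From day 0 to day 3 Hotairm1 fell by 1.39 in knockout (adjusted p = 0.0161) and by 1.76 in wild type (adjusted p = 0.00480). From day 0 to day 6 it rose by 1.53 in knockout (adjusted p = 0.00653), and in wild type the change was -0.89 (adjusted p = 0.0725). The difference between these changes was 2.42 (SE 0.55, adjusted p = 0.0294). That last call was lost in 10 of 22 alternatives. It was lost with cell line as a block (adjusted p = 0.0585), with array weights (0.117), with a pseudocount of 0.1 (0.140) and without any 1 of 7 libraries, where the adjusted p ran to 0.0969.

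Within genotypes, 4 of the 4 tested genes were called higher at day 6 than at day 0 in knockout, where 35.5% of all genes were, and 3 of 4 in wild type, where 31.5% were. Cdx2, Hoxb1 and Hoxb2 reached the minimum mean FPKM of 1 only through day 6, so a rise was partly built in. Cdx1 and Cdx4 were under that minimum and not counted, so both counts are a description. At day 3 against day 0, Hotairm1 was the 1 gene of 4 called lower in knockout, where 27.98% of all genes were, and in wild type, where 30.2% were. The 2 tests of whether the genotype difference changed with the day called 0 of 4 at day 3, with 0 at an unadjusted p under 0.05 and 0.0401% of all genes called, and 1 of 4 at day 6, where 5.28% of all genes were called higher. All comparisons with day 0 within a genotype share that genotype's day 0 libraries, so they are not independent of each other.

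Cdx2, Hoxb1 and Hoxb2 followed one course over the libraries: low at day 0, low at day 3 and high at day 6 except in wild type replicate 1. As a measure of likeness over the 12 libraries, which share the 3 days, Pearson's r of log2(FPKM + 1) was 0.98 between Hoxb1 and Hoxb2, 0.95 between Cdx2 and Hoxb2, and 0.92 between Cdx2 and Hoxb1. Hotairm1 was less like them, with r of 0.44 to 0.68. Among all other tested genes the closest to Hoxb1 were the receptor gene Kdr (0.990), Rasgrp3 (0.988) and the cluster neighbour Hoxb3 (0.987). Those closest to Hoxb2 were Kdr (0.990), the protease gene Tmprss2 (0.989) and Rasgrp3 (0.989). Those closest to Cdx2 were 1010001N08Rik (0.997), the G protein subunit gene Gna12 (0.995) and the noncoding Rubie (0.994), and those closest to Hotairm1 were Mad2l2 (0.970), Fbxl6 (0.960) and Ccnt1 (0.953). Kdr, a receptor for vascular endothelial growth factor, had 43.5 and 51.6 FPKM in knockout at day 6, against 4.41 and 33.0 FPKM in wild type, the same order of libraries as Cdx2.

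The genomic sequence before the start of 3 of these genes is shown because CXXC zinc fingers bind CpG. The 3 genes were not picked by their expression. The promoter reference held no sequence for Hoxb2 and Hotairm1, and that of Cdx1 is not reported here. Each sequence shown is the 250 bases upstream of the annotated start from RefSeq (GRCm38.p6), 5′ to 3′ on the strand of the gene, with every CpG in capitals. Cdx2 lies at chr5:147307250-147307499 on the minus strand, Cdx4 at chrX:103321148-103321397 and Hoxb1 at chr11:96365508-96365757, both on the plus strand. The Hoxb1 window ends past 96365746, the gene start given above, so it is counted from another start.
Cdx2: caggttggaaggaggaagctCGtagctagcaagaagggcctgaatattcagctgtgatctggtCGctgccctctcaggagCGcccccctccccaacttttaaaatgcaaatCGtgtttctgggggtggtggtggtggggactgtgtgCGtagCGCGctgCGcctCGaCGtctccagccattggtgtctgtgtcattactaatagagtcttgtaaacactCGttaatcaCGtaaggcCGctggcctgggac
Cdx4: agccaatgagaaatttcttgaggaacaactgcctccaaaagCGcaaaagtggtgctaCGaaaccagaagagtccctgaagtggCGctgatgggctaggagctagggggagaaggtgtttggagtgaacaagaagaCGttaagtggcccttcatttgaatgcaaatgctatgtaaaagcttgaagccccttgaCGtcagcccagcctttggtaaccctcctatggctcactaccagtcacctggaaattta
Hoxb1: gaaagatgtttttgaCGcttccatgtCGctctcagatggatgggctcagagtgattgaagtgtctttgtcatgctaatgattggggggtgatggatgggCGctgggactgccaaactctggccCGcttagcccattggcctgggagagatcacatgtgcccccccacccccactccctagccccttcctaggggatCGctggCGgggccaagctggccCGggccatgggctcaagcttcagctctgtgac

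Cdx2 had 13 CpG in this window, Hoxb1 7 and Cdx4 5, against a median of 6 over 32851 RefSeq promoters. Of all promoters, 31.5% held at least as many CpG as Cdx2, 46.3% as many as Hoxb1 and 55.6% as many as Cdx4. Windows of 250 bases were searched on both strands for TTTATG of Cdx factors, CTTTGA of TCF/LEF factors, AGGTCA of nuclear receptors such as those for retinoic acid, and TGATNNAT, which Hox and Pbx proteins bind together. The only match in the 3 windows was TGATNNAT in Hoxb1, 162 bases before the start used for its window, shown with its flanks and the match in capitals.
Hoxb1 match: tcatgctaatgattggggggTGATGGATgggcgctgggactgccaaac
Of all promoters, 10.8% held TTTATG, 13.8% CTTTGA, 14.02% AGGTCA and 7.68% TGATNNAT. A match of letters is a description and not a binding site.

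The rest of the Hox clusters was mostly too low to test, and Hoxb3 was the 1 other Hox gene whose mean FPKM reached 1. Hoxb3 had 3.13 and 4.36 FPKM in knockout at day 6, against 0.990 and 4.52 FPKM in wild type, the same overlap as Hoxb1 (log2 fold change 0.50, SE 0.39, adjusted p = 0.333). Of the 38 protein-coding Hox genes seen in any day 6 library, 21 were higher in both knockout libraries than in both wild type ones and 2 were lower. Of the 6 genes studied here, Cdx1, Cdx2 and Hotairm1 were higher in both, and among all genes seen at day 6 27.8% were. The count differed between clusters, with 9 of 11 Hoxa, 6 of 8 Hoxc, 5 of 9 Hoxd and 1 of 10 Hoxb genes. Hoxb genes overlapped most often, a difference between clusters that was not tested. Wild type replicate 2 summed to 20.1 FPKM over Hoxb and 5.47 FPKM over Hoxd genes, against 4.33 and 1.21 FPKM in wild type replicate 1. Some counted genes were near the floor, such as Hoxc11, with 0.0462 and 0.0454 FPKM in knockout and 0 in wild type.

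With the lower minimum of 0.1 FPKM, 26 Hox genes were tested at day 6, of which 8 were called higher in knockout and 0 lower, where 14.5% of all genes were called higher. Their median log2 fold change was 0.41, against 0.01 over all genes. Members that passed through a high knockout level alone had to differ, so the count is a description. An example, chosen after its values were seen, was Hoxa13. Hoxa13, a gene of the distal limb and hindgut, had 1.30 and 1.31 FPKM in knockout, against 0.125 and 0.150 FPKM in wild type.

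**Figure D4:**
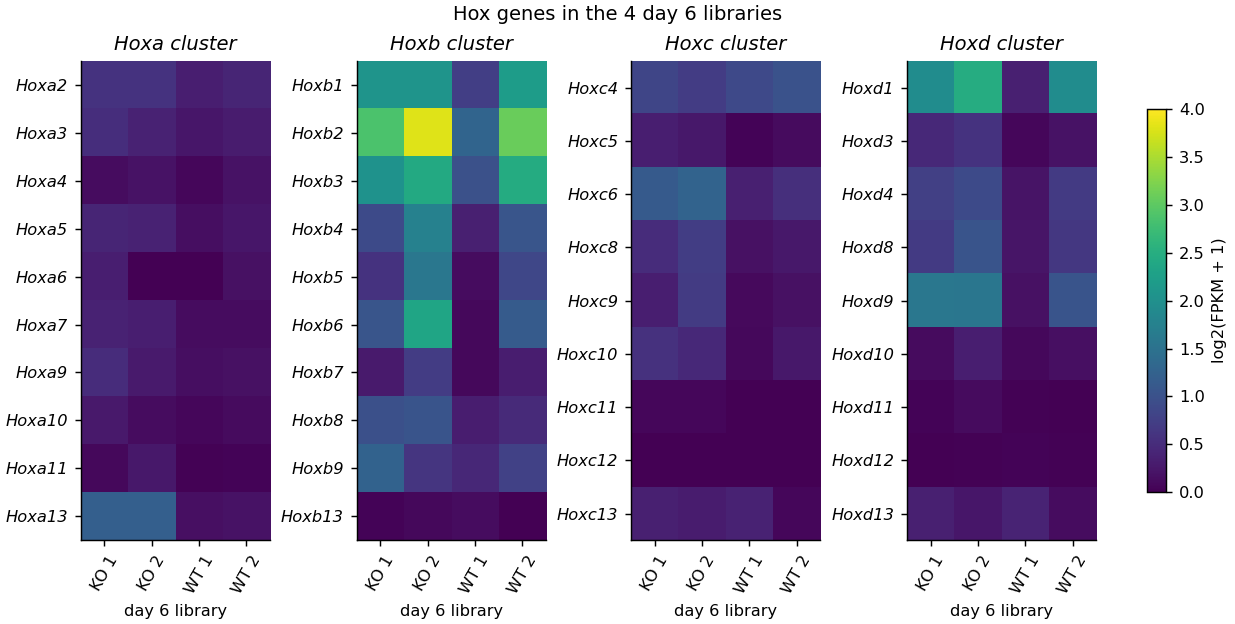
Log2(FPKM + 1), shown by colour, of protein-coding Hox genes in knockout replicates 1 and 2 and wild type replicates 1 and 2 at day 6, with genes in cluster order from the 3′ end down. Hoxb2 was the brightest gene, with 6.28 and 12.98 FPKM in knockout and 1.46 and 7.46 FPKM in wild type, and wild type replicate 1 was the dark column in the Hoxb and Hoxd clusters.

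The Hox cofactors, Pbx, Meis and Pknox proteins that bind DNA with Hox factors, were all expressed at a mean FPKM of at least 1. At day 6, 3 of 9 were higher in knockout and 0 lower, with a median log2 fold change of 0.22 against 0.02 over all tested genes, of which 17.9% were higher and 16.2% lower. They were Meis2 (log2 fold change 0.71, adjusted p = 0.0246), Meis3 (0.58, adjusted p = 0.0106) and Pbx2 (0.23, adjusted p = 0.0198). Of 17 tested genes of the posterior streak and tailbud, where Cdx genes act, 6 were higher in knockout and 0 lower, with a median of 0.70, against the same 17.9% higher. They included the Wnt ligand genes Wnt5a (1.66, adjusted p = 0.0269) and Wnt5b (0.93, adjusted p = 0.00401) and the Wnt target genes Sp5 (1.17, adjusted p = 0.0247) and Axin2 (0.97, adjusted p = 0.0262). The mesoderm marker T did not pass, with 97.9 and 50.7 FPKM in knockout and 31.5 and 73.0 FPKM in wild type.

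Of 10 tested retinoic acid genes, which act on Hoxb1, 2 were higher and 0 lower, with a median of 0.14, a share higher that is close to the 17.9% of all tested genes. The 2 were the receptor gene Rara (0.34, adjusted p = 0.0378) and its corepressor gene Nrip1 (0.35, adjusted p = 0.0149). Of 7 tested anterior and hindbrain genes, 0 were higher and 2 lower, where 16.2% of all tested genes were lower: the forebrain and midbrain factor Otx2 (-1.04, adjusted p = 0.0227) and the neural factor Pax6 (-1.12, adjusted p = 0.0411), with a median of -0.99. Egr2, a marker of hindbrain rhombomeres in which Hoxb2 acts, had 0.504 and 0.951 FPKM in knockout and 0.643 and 0.966 FPKM in wild type at day 6.

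Markers of other cell types that express Cdx2 or could be present moved with genotype at day 6. Of 11 tested trophoblast genes, 7 were higher, where 17.9% of all tested genes were, and 0 lower, with a median of 1.40, and the 17 genes of the list summed to 873 and 1245 FPKM in knockout, against 214 and 542 FPKM in wild type. The 4 with the largest change were Hand1 (3.44), the keratin genes Krt18 (1.69) and Krt8 (1.52) and Gata2 (1.67). The defining markers of trophoblast were uneven. Tpbpa, of the ectoplacental cone and spongiotrophoblast, had 5.32 and 4.46 FPKM in knockout, against 0.355 and 0.0284 FPKM in wild type. Elf5, of trophoblast stem cells, had 0.180 and 0.177 FPKM in knockout and 0.0901 and 0.154 FPKM in wild type. Prl3d1, of giant cells, had 0.0978 and 0.0960 FPKM in knockout and was listed at 0 in both wild type libraries, and Gcm1 and Esx1 had 0.442 to 1.01 FPKM in knockout and 0.127 to 0.322 FPKM in wild type. Of 12 tested genes of the allantois and extraembryonic mesoderm, which also expresses Cdx2 in the mouse embryo, 10 were higher and 0 lower, with a median of 2.34. Their list summed to 428 and 667 FPKM in knockout, against 34.7 and 242 FPKM in wild type, the order of libraries seen for Cdx2. Hand1, also in the trophoblast list, Foxf1 (3.09), Hand2 (2.58) and Bmp4 (2.53) changed most. Some counted genes, such as Gata3 and Isl1, reached the minimum mean FPKM of 1 largely through knockout at day 6, which favours a difference. Elf5, Gcm1, Esx1 and Prl3d1 were under that minimum and not counted, so the counts of both lists are a description. The part of trophoblast and extraembryonic mesoderm cells in the Cdx2 difference was not tested.

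Of 8 intestinal targets of Cdx factors, 0 reached a mean FPKM of 1, and Isx was listed at 0 in all 4 day 6 libraries. Feeder fibroblast genes summed to 18.7 and 33.0 FPKM in knockout, against 10.7 and 16.3 FPKM in wild type, and 2 of 6 tested were higher, where 17.9% of all tested genes were. These were Twist2 (log2 fold change 1.51, adjusted p = 0.0263 by limma) and Fbn1 (1.08, adjusted p = 0.0375). Pluripotency genes summed to 737 and 338 FPKM in knockout and 1061 and 587 FPKM in wild type, with 1 of 10 lower, Sox2 (-1.36, adjusted p = 0.0485), and 0 higher, a share lower that is under the 16.2% of all tested genes.

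**Figure D5:**
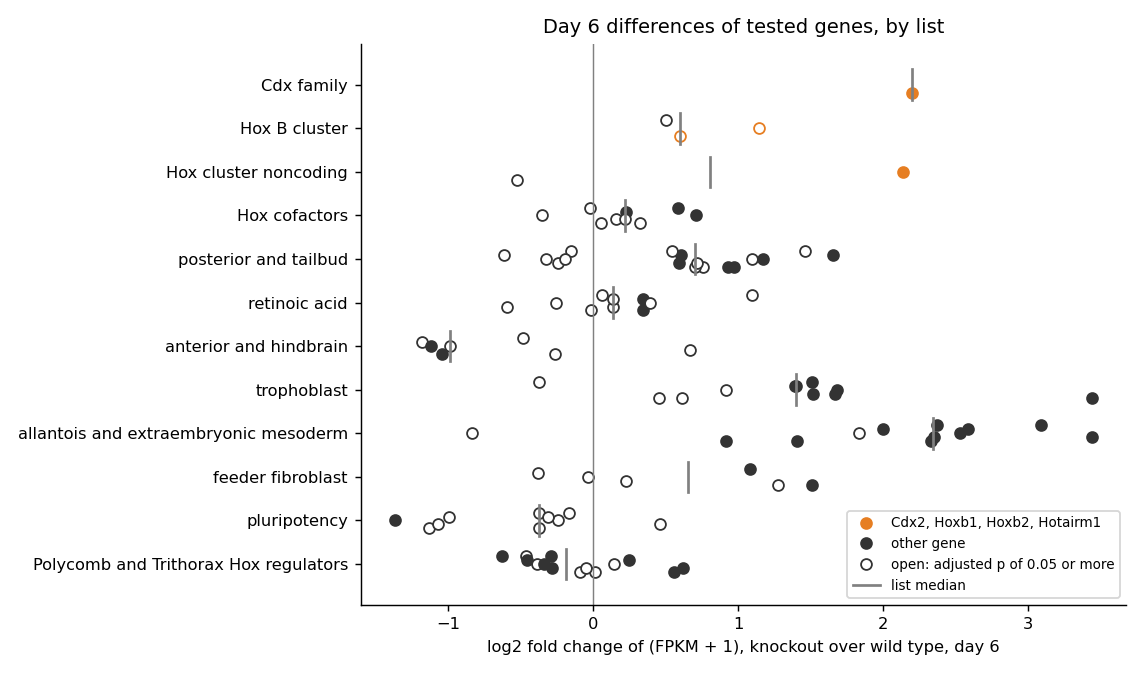
Log2 fold change of (FPKM + 1) in knockout over wild type at day 6 (horizontal axis) for tested genes of each list (rows). Filled points passed an adjusted p of 0.05, open points did not, orange points are Cdx2, Hoxb1, Hoxb2 and Hotairm1, and grey lines are list medians. Genes of the allantois and extraembryonic mesoderm lay furthest right, with a median of 2.34, and anterior and hindbrain genes furthest left, with a median of -0.99.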

How the data were processed

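The authors deposited FPKM values of 24458 genes in 12 embryoid body libraries. Per the labels' protocols, adapters were removed from single-end reads by Trim Galore 0.4.1 and TopHat2 2.0.13 mapped them to mm10. Per the submitters' processing notes, HTSeq 0.6.1, Cuffdiff and Cufflinks 2.2.1 were in use too. In the sources used here no statement says which tool or annotation gave the FPKM. The members and gene lists were chosen with earlier results of these data known. Named genes were the members, the 3 genes most like each tested member, and up to 4 called genes of each list with the largest change. Some other genes, among them T, Egr2, Elf5 and Ezh2, were named as markers or list members without a call. For the Polycomb and Trithorax list, all called genes were named.

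Genes whose mean FPKM was 1 or more entered limma 3.58.1 (R 4.3.3) on log2(FPKM + 1), which understates changes of low genes, with a mean per group, a variance trend, two-sided tests and Benjamini-Hochberg adjustment. Fold changes are knockout over wild type or later over earlier day. In data simulated for the day 6 comparison with 12472 genes, 86 of 100 genes changed by 1 on the log2 scale and 95 of 100 changed by 2 were called, with 9 false calls. The simulation gave each gene the same spread in every group and changed only 200 genes. It therefore does not describe calls where the day 6 libraries vary more than those of the other days. Reads per gene were recovered from steps in low FPKM values: of the values of 3243 low genes, 74.1% lay within 0.03 of a whole number of reads. Poisson intervals and the floor of 3 reads cover counting error only. Another table, of stem cells, holds 6 library columns that match no single labelled sample, and it was not used here. The labels give no batch. The values of 1 gene included in the counts are not reported here.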

Additional observations from a re-analysis of the deposited data

Results flagged for a closer look

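The genotype difference of Hotairm1 passed the test for a change with the day, but not in 10 of 22 alternatives, among them cell line as a block (adjusted p = 0.0585) and 7 fits without 1 library. The difference at day 6 minus that at day 0 was 2.42 on the log2 scale by the interaction test of limma (SE 0.55, adjusted p = 0.0294), with 17 and 23 reads in knockout libraries at day 6 and 2 and 4 in wild type ones. The genotype difference of Cdx1 also changed with the day, by 1.63 (SE 0.20, adjusted p = 0.00447) among genes whose mean FPKM was 0.1 or more. Knockout was the lower group at day 0 and the higher at day 6, in 2 of 2 libraries each time. Most of the change lay at day 0, with a log2 fold change of -1.38 whose call was lost in 4 of 16 alternatives. The day 6 difference of 0.25 did not pass the threshold (adjusted p = 0.228 by limma).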

How the results depend on the processing

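The counts below are of the 4 to 6 genes studied here past the threshold. At day 6 between genotypes the count of 2 was 1 with a pseudocount of 0.1 or array weights and 0 in the 4 libraries of the day alone. It ran from 1 to 4 when 1 library was left out. At day 0 it was 1, Cdx1, with any of the 3 other filters (a mean FPKM of at least 0.1, an FPKM of at least 1 in at least 2 libraries, or no filter). From day 0 to day 3 the count of 1 was 2 with any of those filters in either genotype, 0 in knockout and 3 in wild type with a pseudocount of 0.1, and ran from 0 to 2 in knockout and from 1 to 3 in wild type without 1 library. For the interaction at day 6 the count of 1 was 2 with any of those filters, 0 with a pseudocount of 0.1, with array weights or with cell line as a replicate block, and 2 with replicate number as a replicate block. It ran from 0 to 4 without 1 library. With 1 library left out, the day 6 log2 fold change of Hoxb1 ran from -0.14 to 1.34 and its interaction from -0.17 to 1.31, both negative without wild type replicate 1 of day 6. Of 457 values of single genes under an alternative, 415 kept direction and side of the threshold, 30 lost the call, 10 gained it and 2 reversed. Quantile normalization, median of ratios scaling and no variance trend moved no other count by over 1.5 times. These counts ignore direction. From day 0 to day 6 in wild type, 3 were called higher in the main fit, but 2 higher and 1 lower with quantile normalization. The cause of these changes was not tested. Replicate numbers were not taken to pair the libraries, since deviations of same-numbered libraries correlated at -0.08 to 0.08 between days within a genotype. The highest value, 0.24, was between genotypes at day 6. The sample labels do not say whether a replicate number is the same line on each day, and the main model takes the 12 libraries as independent. The tests of Cdx1 were added after seeing the data. Depth limits Cdx4 and Hotairm1, with 32 and 71 reads in all.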

Other observations

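Polycomb and Trithorax proteins keep Hox clusters silent or active. Of 14 tested genes of this kind, 3 were higher in knockout at day 6 and 5 lower, with a median log2 fold change of -0.19. Over all tested genes 17.9% were higher, close to the share in this list, and 16.2% lower. The higher ones were the demethylase gene Kdm6b (0.62, adjusted p = 0.0226 by limma) and the methyltransferase genes Kmt2d (0.56, adjusted p = 7.91e-04) and Kmt2a (0.25, adjusted p = 0.0109). Among the lower ones were Suz12 (-0.63, adjusted p = 0.00464) and Eed (-0.46, adjusted p = 0.00192), subunits of Polycomb repressive complex 2, and Rnf2 (-0.34, adjusted p = 0.0136) of Polycomb repressive complex 1. The other lower ones were the demethylase gene Kdm6a (-0.29, adjusted p = 0.0286) and Ctcf (-0.29, adjusted p = 0.00954). Ezh2, the catalytic subunit of the same complex as Suz12, did not pass (-0.09, adjusted p = 0.537).

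Halr1, the other tested noncoding RNA of the Hox list, had 0.743 and 0.183 FPKM in knockout at day 6, against 2.34 and 0.282 FPKM in wild type. Its log2 fold change was -0.53 (adjusted p = 0.356).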
